A study of Mus musculus with 4 samples.

Results

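The regions described here are 905 peaks of phosphorylated Smad1/5 (pSmad1/5), without an overlapping peak of phosphorylated Smad3 (pSmad3), whose midpoints lay within 1 kb of an end of a gene. The tissue was E13.5 molars of CD1 mice, genotype wild type, dissociated to single cells and profiled by CUT&RUN (E13.5 is the embryonic day). In this method an antibody directs micrococcal nuclease to cut the chromatin around a bound protein. The study made 2 libraries with each antibody, and the authors deposited 1 list of common peaks for each. Both groups are untreated wild-type mouse tissue, the labels do not say how many embryos went into a library, and the dissociated germs hold dental epithelium, mesenchyme and whatever other cells came with them.

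Smad1 and Smad5 are phosphorylated by receptors for bone morphogenetic proteins (BMPs), and Smad3 by receptors for TGF-β and activin. Phosphorylated Smads join Smad4, enter the nucleus and bind short DNA sites, the Smad box CAGAC and GC-rich sites such as GGCGCC, usually alongside other transcription factors. In the tooth, BMP signals pass between the epithelium and the mesenchyme while the bud forms and turns into a cap. A peak near the start of a gene lies at its promoter, whereas a peak at its other end lies where transcription stops, and neither shows by itself that the gene is regulated.

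The members were chosen by their measured values, so what the rule used is a description. Of 10741 pSmad1/5 peaks, 10510 lay on chromosomes 1 to 19, and 9668 of these had a maximum signal of at most 32, which is 2 times the list median of 16. Leaving out 1619 peaks that overlapped a pSmad3 peak by at least 1 bp left 8049, and 905 of those were at a gene end. The whole series holds 18646 peaks, 7905 of them in the pSmad3 list. Below, "gene-end peaks" means these 905. The other pSmad1/5-only peaks were 4465 inside genes and 2679 between genes. Peaks at gene ends in 2 further groups served for comparison, 179 pSmad1/5 peaks shared with pSmad3 and 626 pSmad3-only peaks.

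The DNA under these peaks is shown first for the genes at which a complete Smad element was found. Promoter windows of RefSeq on mm10 (GRCm38.p6), from 250 bases before to 50 after a transcription start, were searched on both strands. Of 325 protein-coding genes with a gene-end peak at the start and such a window (1.97% of the 16456 with a window), 1 held the BMP response element, a compound site in which GGCGCC is followed after 5 bases by GTCT. A relaxed form of it, GNCGNC followed after 5 bases by GTCT, was in 3 windows, that of the first included. The Smad palindrome GTCTAGAC was in 1 window. The 4 genes, named after their promoters were searched, are Apoa5 (an apolipoprotein of triglyceride transport), Rabggtb (a subunit of the enzyme that attaches lipids to Rab proteins), Ankrd11 (a chromatin-associated protein whose mutation causes KBG syndrome, with enlarged teeth) and Spata20. Each site is given with 15 bases on either side, 5′ to 3′ on the strand of the gene, with the element in capitals. In Apoa5 and Rabggtb the element reads on the opposite strand, so its reverse complement is shown.
Apoa5, chr9:46268542-46268586, plus strand: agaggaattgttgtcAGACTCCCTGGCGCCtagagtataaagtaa
Rabggtb, chr3:153913104-153913148, minus strand: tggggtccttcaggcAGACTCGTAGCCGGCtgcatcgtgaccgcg
Ankrd11, chr8:123042402-123042446, minus strand: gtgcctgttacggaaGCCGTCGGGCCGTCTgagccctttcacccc
Spata20, chr11:94485480-94485517, minus strand: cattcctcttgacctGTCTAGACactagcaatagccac

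All 4 sites lie inside the gene-end peak of their gene. The Apoa5 site starts 51 bases before the transcription start, in the peak at chr9:46266668-46270110, whose call had a total signal of 43203. The Rabggtb site starts 167 bases before the start, in the peak at chr3:153911100-153913424 with a total of 36562. The Ankrd11 site starts 147 bases before the start, in the peak at chr8:123041284-123043671 with a total of 64821. The Spata20 palindrome starts 192 bases before the start, in the peak at chr11:94483140-94486724 with a total of 63752. On the scale of the whole pSmad1/5 list these totals rank at percentiles 26.8, 3.80, 59.8 and 59.1 in that order. Total signal is the authors' coverage value summed over a call, and it is used here only to rank peaks within this list. How the 2 libraries were joined is not known here, so a total may be that of a call in 1 library.

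The 250 bases before the start are shown for 6 further genes whose promoter window lay wholly inside a gene-end peak, with GGCGCC, the related GC-rich site GGAGCC and Smad boxes (CAGAC) in capitals on either strand. Mcam and Col7a1 follow the rule for named genes, and the other 4 were chosen after their values were seen because they are genes of tooth or signalling lists. Each of the 6 holds at least 1 of these sites. Promoters of C1s1, Htra3 and Cdk4 also lay inside a gene-end peak, and their 250 bases before the start held none of these sites. The part of the window after the start is not covered by this count. Htra3 is on a signalling list. Tmem147, Gm52678, Cdc6 and Dot1l, likewise not printed, held at least 1. Mcam encodes an adhesion molecule of vessels and perivascular cells, and Col7a1 the collagen of the fibrils that anchor epithelium to the tissue below. Inhbe encodes an activin subunit, Notch1 a Notch receptor, Edar the ectodysplasin receptor of epithelial placodes, and Sfrp2 a secreted modulator of Wnt signalling.
Mcam, chr9:44134408-44134657, plus strand: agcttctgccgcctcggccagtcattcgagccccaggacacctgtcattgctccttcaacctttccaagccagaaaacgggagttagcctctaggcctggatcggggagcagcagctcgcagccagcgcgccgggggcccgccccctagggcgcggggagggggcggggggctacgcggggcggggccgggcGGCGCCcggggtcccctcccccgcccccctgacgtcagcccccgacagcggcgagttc
Col7a1, chr9:108953336-108953585, plus strand: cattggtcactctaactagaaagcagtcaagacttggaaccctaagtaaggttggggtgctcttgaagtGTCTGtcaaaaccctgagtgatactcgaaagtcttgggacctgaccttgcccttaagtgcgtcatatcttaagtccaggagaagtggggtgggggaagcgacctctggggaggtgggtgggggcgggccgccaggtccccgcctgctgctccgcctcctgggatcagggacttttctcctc
Inhbe, chr10:127351849-127352098, minus strand: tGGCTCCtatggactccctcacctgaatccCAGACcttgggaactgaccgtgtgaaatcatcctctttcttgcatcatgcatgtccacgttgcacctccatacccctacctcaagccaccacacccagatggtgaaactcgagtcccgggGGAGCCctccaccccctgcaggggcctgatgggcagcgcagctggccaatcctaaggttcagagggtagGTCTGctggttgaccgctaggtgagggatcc
Notch1, chr2:26503823-26504072, minus strand: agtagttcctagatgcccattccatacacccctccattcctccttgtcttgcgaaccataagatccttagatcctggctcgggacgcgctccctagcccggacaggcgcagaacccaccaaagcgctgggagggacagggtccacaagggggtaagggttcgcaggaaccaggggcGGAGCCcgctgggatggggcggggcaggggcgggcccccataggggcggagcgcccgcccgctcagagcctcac
Edar, chr10:58675697-58675946, minus strand: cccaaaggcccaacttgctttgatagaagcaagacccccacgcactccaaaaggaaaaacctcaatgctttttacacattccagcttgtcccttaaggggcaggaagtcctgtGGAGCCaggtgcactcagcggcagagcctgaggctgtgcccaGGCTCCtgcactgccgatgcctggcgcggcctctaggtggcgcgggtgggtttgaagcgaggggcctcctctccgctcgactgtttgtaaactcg
Sfrp2, chr3:83766071-83766320, plus strand: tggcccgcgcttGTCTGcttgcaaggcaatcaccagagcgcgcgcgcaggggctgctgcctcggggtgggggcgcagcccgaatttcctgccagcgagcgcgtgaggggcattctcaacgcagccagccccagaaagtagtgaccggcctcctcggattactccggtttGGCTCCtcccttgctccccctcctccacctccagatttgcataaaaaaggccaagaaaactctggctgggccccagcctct

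None of these 6 stretches holds either form of the BMP response element. The Mcam stretch has 1 GGCGCC, starting 58 bases before the transcription start, and no CAGAC. The Inhbe stretch has 2 CAGAC boxes and 2 GGAGCC sites, the Edar stretch 2 GGAGCC sites, and the Sfrp2 stretch 1 of each. Notch1 has a single GGAGCC and Col7a1 a single CAGAC. A match is a description of the letters and was not tested as a binding site.

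Over all 325 promoters, simple Smad boxes were no more frequent than in promoters at large. CAGAC was present in 48.9% of the 325 windows (exact 95% Clopper-Pearson interval 43.4 to 54.5, which like all intervals here covers counting error only) and in 48.7% of the windows of 16456 protein-coding genes, 1 window a gene. GGCGCC was in 19.7% (15.5 to 24.4) against 15.9%. GGAGCC was in 44.9% (39.4 to 50.5) against 35.2%, and the GC box GGGCGG, a site of Sp1-type factors, in 63.4% (57.9 to 68.6) against 47.3%. The TATA box TATAAA was in 26 of the 325 windows (interval 5.29% to 11.5%) and in 2228 of the 16456. The last 3 of these intervals leave out the share over all genes. The relaxed BMP response element was in 0.923% (0.191 to 2.67) against 0.899%, and the strict form in 0.308% (0.00779 to 1.70) against 0.0851%. CCAAT was at 39.1% in both, and the ETS site CCGGAAG at 10.2% (7.09 to 14.0) against 12.3%. Promoters of the 202 protein-coding genes with a pSmad3-only peak at the start had the GC box in 57.9% (50.8 to 64.8), GGAGCC in 38.6% (31.9 to 45.7), GGCGCC in 23.3% (17.6 to 29.7) and TATAAA in 7.43% (4.22 to 11.95). The strict BMP element contains GGCGCC, and its relaxed form contains the strict one, so these counts overlap.

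The promoters also differed in base composition. The CpG ratio, observed over expected CG dinucleotides in the 300-base window, was above 0.6 for 196 of 325 genes with a gene-end peak at the start, or 60.3% (54.8 to 65.7), against 49.8% over all protein-coding genes. Its median was 0.698 in the 325 and 0.597 over all genes, and the median GC content was 60.7% and 56.7%. For protein-coding genes with a pSmad3-only peak at the start, 100 of 202 exceeded 0.6, or 49.5% (42.4 to 56.6), and for those with a shared peak 32 of 67, or 47.8% (35.4 to 60.3). Among promoter windows lying wholly inside a peak, lncRNA genes included, the ratio exceeded 0.6 in 53.0% (48.3 to 57.7) of 445 windows in gene-end peaks. It did so in 37.8% (32.7 to 43.01) of 360 in pSmad3-only peaks and in 33.3% (23.7 to 44.1) of 90 in shared peaks. The differences between these groups were not tested. The motif shares were split by this ratio, into 196 promoters of gene-end peaks above 0.6 and 129 at or below it. Above 0.6, GGAGCC was in 53.1% (45.8 to 60.2) of those with a gene-end peak and 46.0% of all, and GGCGCC in 26.0% (20.03 to 32.8) and 27.7%. At or below 0.6, GGAGCC was in 32.6% (24.57 to 41.4) against 24.54% and GGCGCC in 10.1% (5.48 to 16.6) against 4.22%. The GC box was in 84.7% (78.9 to 89.4) against 74.4% above 0.6 and in 31.0% (23.2 to 39.7) against 20.5% at or below it. TATAAA was in 5.10% (2.47 to 9.18) against 5.82% above 0.6 and in 12.4% (7.26 to 19.4) against 21.2% at or below it. CCGGAAG was in 13.3% (8.85 to 18.8) against 20.1% above 0.6. For the GC box the interval lay above the share of all genes in both classes. For the 2 GC-rich Smad sites it lay above that share, and for the TATA box below it, at or below 0.6 but not above 0.6, with GGAGCC at the very edge. With a pSmad3-only peak at the start, 102 genes at or below 0.6 had GGCGCC in 9.80% (4.80 to 17.3). These had the GC box in 34.3% (25.2 to 44.4), TATAAA in 10.8% (5.51 to 18.5) and GGAGCC in 30.4% (21.7 to 40.3). The 100 such genes above 0.6 had GGCGCC in 37.0% (27.6 to 47.2), the GC box in 82.0% (73.1 to 89.0) and GGAGCC in 47.0% (36.9 to 57.2). Genes that share 1 peak or 1 promoter region were counted separately.

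**Figure D1:**
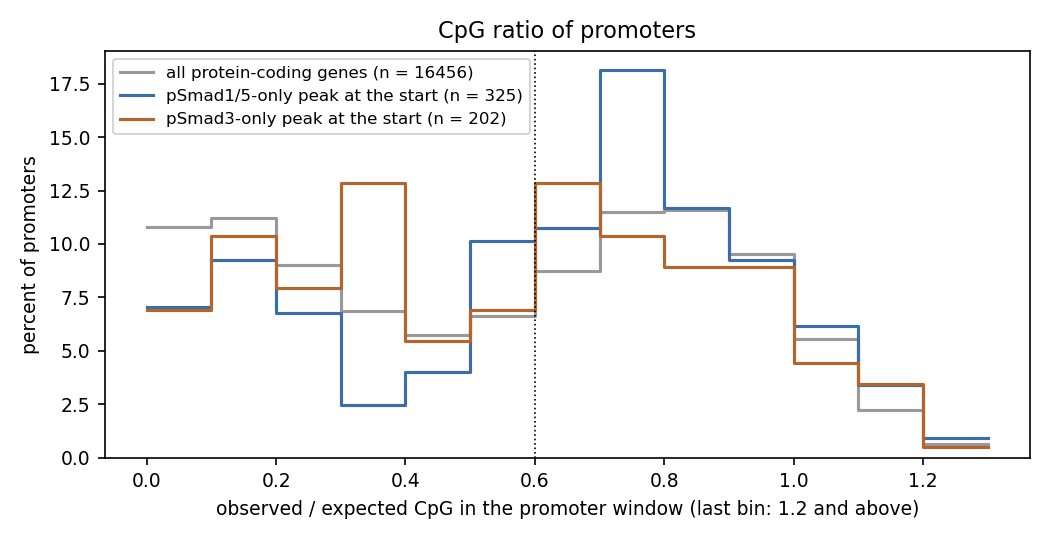
CpG ratio (observed over expected CG dinucleotides) of 300-base promoter windows on the x axis and percent of promoters per bin of 0.1 on the y axis, for all 16456 protein-coding genes (grey), 325 with a gene-end pSmad1/5-only peak at the start (blue) and 202 with a pSmad3-only peak at the start (brown). The dotted line is the ratio of 0.6, above which lie 60.3%, against 49.8% of all genes and 49.5% of genes with pSmad3-only peaks.

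The gene-end peaks were of medium width and low to medium signal. Their median width was 2342 bp (interquartile range 1830 to 2856, range 10 to 7308), close to the 2316 bp of pSmad1/5-only peaks inside genes and the 2333 bp of those between genes. The median total was 52584 (42048 to 82817, range 35641 to 426571), beside 51287 inside genes, 48365 between genes and 71300 for the shared peaks at gene ends. The maximum signal had a median of 16 (14 to 17) and reached 31 of the allowed 32. A total below the list median was found for 487 of 905 (53.8%).

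Each deposited line is 1 peak, but a call can be deposited in several pieces that repeat the same total, maximum and position of the maximum. The 905 peaks come from 873 calls, and 32 calls gave 2 gene-end peaks each. Calls of several pieces held 336 of them, or 37.1% (34.0 to 40.4), near the 37.5% of all pSmad1/5 peaks, beside 33.4% inside genes, 28.0% between genes and 50.3% of shared peaks at gene ends. The region of maximum signal lay inside the peak itself for 245, or 27.1% (24.2 to 30.1), near the 30.1% of all pSmad1/5 peaks. It was 25.7% inside genes, 30.6% between genes and 29.6% of shared peaks at gene ends, against 73.8% (70.2 to 77.2) of the 626 pSmad3-only peaks at gene ends. The total belongs to the call, which can extend beyond the deposited peak even where the maximum lies inside it. At Gm32845 a call in 1 piece had its maximum of 20 inside a peak of 1823 bp. Its total of 124039 is more than that width and maximum allow. In the other peaks the region of maximum, too, lay outside the part at the gene end. The midpoint of that region was also within 1 kb of an end of the same gene for 262 peaks (29.0%).

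Just inside the limit on the maximum stood 2 peaks at 31, 1 at the lncRNA gene Gm52033 and 1 at the ends of Gpr153, an orphan receptor, and Hes3, a repressor of the Hes family. Just outside it were 11 peaks that met every other criterion, the lowest at 38 at Armc8, followed by Gm30136 at 40 and by Gm2427 and Gm46898 at 42. At the distance limit, the midpoint at Gm32492 was 1000 bp away and those at Mrto4 and Ccbe1 996 bp, while that at Cntn2, 1000.5 bp away, stayed outside. The nearest midpoints were 0.5 bp from an end of 4930563I02Rik, 1.5 bp from one of Gm42318 and 2 bp from one of Btbd17.

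Absence of a pSmad3 peak did not mean that pSmad3 was far away. The nearest pSmad3 peak was a median of 30883 bp from a gene-end peak (interquartile range 9793 to 84931), but 232 of 905 (25.6%) had one within 10 kb. Another piece of the same call overlapped a pSmad3 peak in 57 (6.30%), beside 4.43% of pSmad1/5-only peaks inside genes and 5.52% between genes. Such a piece belongs to the call at C1s1, where the nearest pSmad3 peak was 165 bp from the gene-end peak. Signal below the calling threshold was not examined.

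The 905 peaks stood at ends of 1070 genes, 776 protein-coding and 294 lncRNA. These are 3.78% of 20556 protein-coding and 2.39% of 12324 lncRNA genes on chromosomes 1 to 19. A protein-coding gene was among the genes at 674 peaks, or 74.5% (71.5 to 77.3), beside 68.1% (64.2 to 71.7) of pSmad3-only and 82.7% (76.3 to 87.9) of shared peaks at gene ends. Protein-coding genes with such a peak had a median length of 13323.5 bp, and all protein-coding genes 17578.5 bp. The locus, meaning the gene and 10 kb on either side, held a pSmad3 peak for 305 of the 776, or 39.3% (35.8 to 42.8), where 25.5% of all protein-coding genes had one. It held a further pSmad1/5 peak for 357, or 46.0% (42.5 to 49.6), where 24.9% of all genes had one, but these include other pieces of the same calls. Counting only calls without a gene-end peak, 186 genes had one, or 23.97% (21.0 to 27.1), near the 23.3% of all genes.

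Gene-end peaks were split nearly evenly between the starts and the other ends of genes. Where the strand of the nearest gene was known, the nearer end was the start for 387 of 721 peaks, or 53.7% (49.96 to 57.4). The share was 50.8% (46.3 to 55.3) for pSmad3-only and 47.1% (38.9 to 55.3) for shared peaks at gene ends. Counted by gene, 1.97% of 16456 protein-coding genes of known strand had a gene-end peak at the start and 1.8% at the other end. Around the start, the 456 peak and gene pairs spread over the 8 bins of 250 bp from 45 to 77 pairs, with the most between 250 and 500 bp downstream. Around the other end, the 393 pairs spread from 39 to 58 a bin. The midpoint was downstream of the start in 51.1% of pairs and downstream of the other end in 49.9%.

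**Figure D2:**
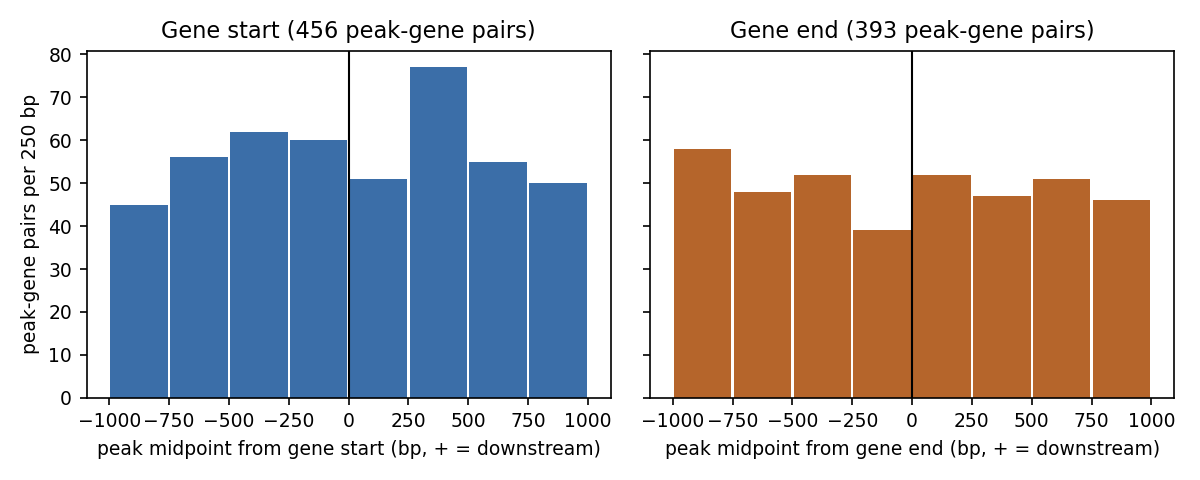
Number of peak and gene pairs per bin of 250 bp on the y axis against the distance of the peak midpoint from the gene start (left, 456 pairs) or the other gene end (right, 393 pairs) on the x axis, positive downstream in the direction of transcription. Bins hold 45 to 77 pairs around the start and 39 to 58 around the other end, with no single bin standing over the transcription start.

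Several genes shared 154 peaks, or 17.0% (14.6 to 19.6), beside 16.8% of shared peaks and 13.4% of pSmad3-only peaks at gene ends. Among peaks at exactly 2 genes, 42 lay at 2 starts on opposite strands, the layout of a bidirectional promoter. A further 28 lay at 2 converging ends and 19 at the end of one gene and the start of the next on the same strand. In 49 the strand of at least 1 gene was not known here. The peak at chr18:37840447-37842531 stood at the shared end of 24 genes, with a total of 49896. Of these, 21 are gamma protocadherins, adhesion proteins of neurons, and the other 3 are the gene models Gm37013, Gm38666 and Gm38667. This 1 peak gives all 21 of the 90 cadherin and protocadherin genes that had a gene-end peak. The next fullest peaks touched 3 genes each, among them Tmem102, Fgf11 and G630025P09Rik at chr11:69802210-69804373.

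The highest total among the 905 was that of Dynlt1c, a light chain of the dynein motor, at chr17:6607281-6610293, with a total of 426571 and a maximum of 23. Col7a1 followed at chr9:108951798-108954187 with 371171 and a maximum of 20. The peak midpoint was 594 bp upstream of the Col7a1 start. The lncRNA gene Gm7152 had a total of 336528, and C1s1, a serine protease of the complement system, 320632 with a maximum of 30. Ndufs7, a subunit of respiratory chain complex I, had 283718 in a peak of 7198 bp. Then came the lncRNA gene Gm52678 at 273836, the peak at Gpr153 and Hes3 with 215833, Brd3os at 213510, the peak at Tmem147 and Gapdhs with 206072, and Mucl2 at 194099. All 10 calls were deposited in 2 to 5 pieces, so these totals sum the signal over more than the gene end.

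Both ends of a gene carried separate calls in 7 genes. Plxnb2, a plexin receptor for semaphorins, had a peak of total 36477 at its start and one of 70130 at its other end. Tmem181a had 192479 and 90712, and Prex1, an exchange factor for Rac, 41710 and 110966. Pdzk1ip1 had 40457 and 46320, and the lncRNA gene Gm52559 had 47450 and 80085. The other two were Tnfrsf8 and Gm15418. Single calls reached both ends of other genes, as at Nab2, a corepressor of Egr proteins, where 2 pieces of 1 call of total 103940 lay at either end.

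Lists of genes of the BMP and TGF-β pathways and of the tooth were written with earlier results of these data known. Of 791 genes in 24 such lists, 36 (4.55%) had a gene-end peak, near the 3.78% of all protein-coding genes. The 36 genes had 36 peaks, with a median total of 54369 (range 35708 to 143924) and maxima from 12 to 22. A pSmad3 peak was in the locus of 14 of them. No listed gene had more than 1 gene-end peak, and 6 of the 24 lists had none.

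Of the genes on the BMP and TGF-β lists, 5 had a gene-end peak, and 3.78% of all protein-coding genes had one. Of 25 BMP targets and of 19 receptors and co-receptors, 0 had one. Among 25 TGF-β targets only Pmepa1, a membrane protein that holds back TGF-β signalling, had one. It lay at chr2:173274072-173277782 with the highest total of all listed genes, 143924 (percentile 87.0), and a maximum of 16. The Pmepa1 locus also held a pSmad3 peak, and the nearest one was 8285 bp from this peak. Among 31 ligand genes Inhbe had a peak at its start, chr10:127349784-127352179, with a total of 71238. Of 24 antagonists Htra3, a secreted protease, had one at its start, chr5:35678648-35680604, with a total of 124933. Of 33 Smads and cofactors, 2 had one. They were Foxh1, the forkhead partner of Smads downstream of activin and nodal, with 84247 at chr15:76666169-76669571, and Ctdsp2, a phosphatase that acts on Smads, with 36414. The Ctdsp2 peak is 165 bp wide, and another piece of its call overlapped a pSmad3 peak.

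Dental mesenchyme and epithelium genes with a gene-end peak numbered 3 each, or 7.32% and 8.82% of their lists. Over all protein-coding genes the share was 3.78%, and the differences were not tested. Of 41 mesenchymal genes, Sdc1, the syndecan that appears in the condensing mesenchyme, had a peak of total 77541 at its downstream end, chr12:8791445-8794769. Lhx6, a LIM homeobox factor of oral mesenchyme, had 54815 at its downstream end, chr2:36080101-36082868. Sfrp2 had 39196 at its start, chr3:83763426-83767288, in a peak 4587 bp from a pSmad3 peak. Defining mesenchymal genes such as Pax9, Msx1 and Barx1 had no gene-end peak. Of 34 epithelial genes, Edar had 52999 at its start, chr10:58673828-58676436, with the nearest pSmad3 peak 414286 bp away. Esrp2, a splicing regulator of epithelia, had 38888 in a peak at chr8:106129864-106132263, which also stood at the end of Nfatc3. Krt15, a basal keratin, had 35708 at chr11:100130195-100132940, at percentile 0.298 of the list. Peak lists do not measure expression, so the labelled tissue could not be checked against its markers in these files.

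Of the other signalling lists, 3 of 34 Notch pathway genes (8.82%) had a gene-end peak, beside 3.78% of all protein-coding genes. The shares were 4.88% for the Fgf, 3.17% for the Wnt and 3.70% for the Hedgehog list, and none was tested. Notch1 had a total of 77888 at chr2:26503020-26505769, in a peak that spans its start with the midpoint 572 bp upstream. The midpoint of that peak is nearer, at 467 bp, to the start of the lncRNA gene Gm35978. Rfng, a fringe enzyme that modifies Notch, had 58143, and Aph1a, a subunit of γ-secretase, 36754. Of 41 Fgf pathway genes, Spry4, a feedback inhibitor, had 60587 and Fgfr1, a receptor, 53923. Of 63 Wnt pathway genes, Ror2, a receptor for Wnt5a, had 42055 besides Sfrp2. The Ror2 peak is only 114 bp wide, does not hold the region of maximum of its call, and is 914 bp from a pSmad3 peak. Of 27 Hedgehog genes, Smo, the transducer of the pathway, had 47531 at its downstream end. The 8 genes ranked no higher than percentile 67.7 of the list, the rank of Notch1.

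Genes of the cell cycle and of chromatin had 10 gene-end peaks, 8 of them below the list median in total. Of all 905 gene-end peaks 487 (53.8%) were below it. Of 62 cell cycle genes, 5 had one (8.06%), where 3.78% of all protein-coding genes had one. Cdc6, which licenses replication origins, had a total of 57898 at its start, and Cdk4, a G1 kinase, 49200 at its start. Cdc25a, Rrm2 and E2f1 had 44063, 38210 and 35763, all at the downstream end. Of 83 chromatin regulators, 5 had one (6.02%). The totals were 61173 at the deacetylase Hdac3, 48165 at Smarcb1, 40252 at Tet2, 40144 at Kat5 and 35784 at the methyltransferase Dot1l. The totals of E2f1 and Dot1l rank at percentiles 0.596 and 0.670. Of 53 DNA repair genes Ercc1 had 88406, and of 54 ciliary genes Ift81 had 68394 and Ift46 55284.

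Markers of other cells that a tooth germ can hold had 5 gene-end peaks. Of all protein-coding genes, 3.78% had one. The share was 4.76% for the nerve list and 4.35% for the cartilage and bone list, with 1 gene each. Muscle and perivascular genes had 2 of 20, and no share was tested. Egfl7, a gene of endothelium, had a total of 98167 at its downstream end, where 1 of 25 endothelial genes had a peak. The Egfl7 peak also lies at an end of Agpat2. Erbb3, a receptor of Schwann cells, had 55386 among 21 nerve genes. Mcam had 102124 at its start and Des, of muscle, 53581 among 20 muscle and perivascular genes. The Des peak is only 118 bp wide, does not hold the region of maximum of its call, and also lies at the lncRNA gene Gm15179. Bglap, osteocalcin, had 75156 among 23 genes of cartilage and bone. The lists of 19 macrophage, 12 erythroid, 52 extracellular matrix and 31 housekeeping genes had 0.

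**Figure D3:**
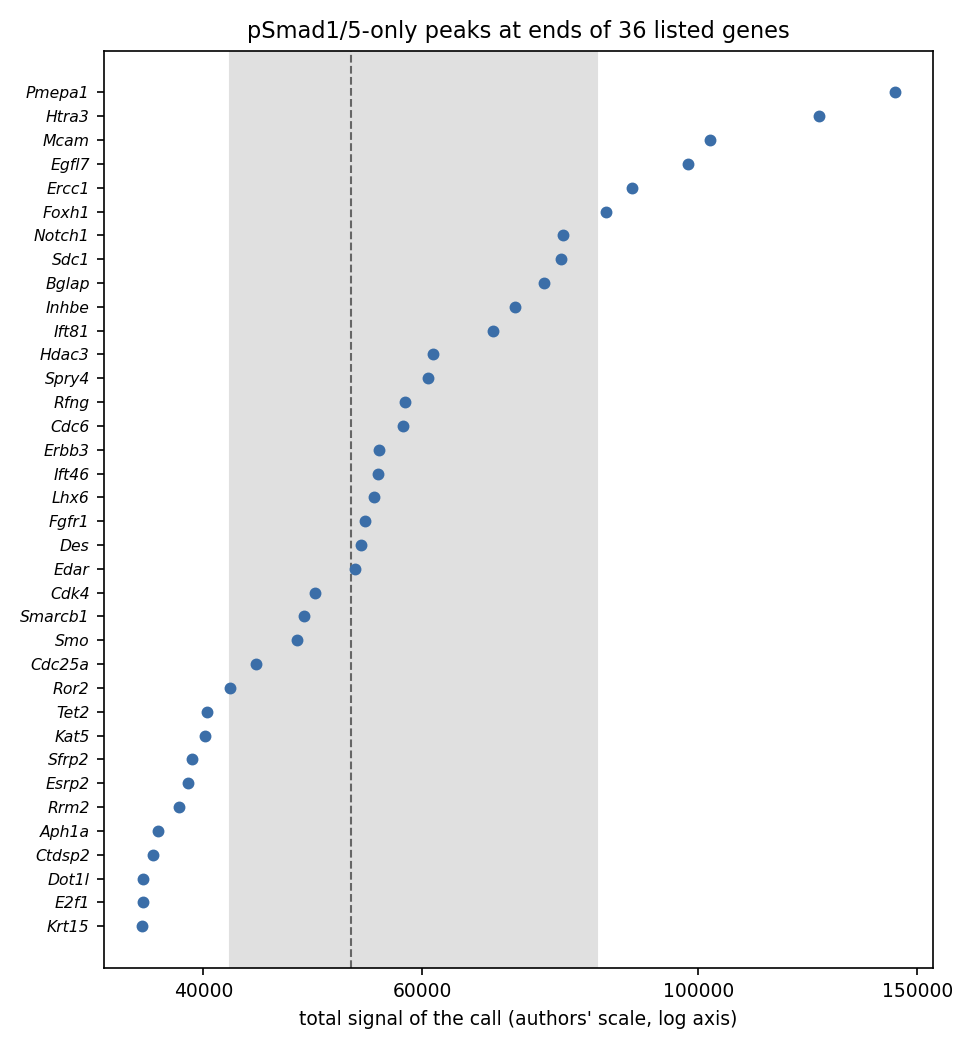
Total signal of the call (x axis, authors' scale, logarithmic) for the gene-end peak at each of the 36 listed genes (y axis, sorted by total), with the median of all 905 gene-end peaks as a dashed line and their interquartile range in grey. Pmepa1 at 143924 and Htra3 at 124933 stand highest, and Krt15 at 35708 stands lowest.

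Gene families defined by symbol gave a wider range of shares, beside the 3.78% of all protein-coding genes. Of 47 complex I genes 6 had a gene-end peak (12.8%), led by Ndufs7 and by Ndufs6 at 147074, whose peak lies at the facing starts of Ndufs6 and Mrpl36. Ribosomal protein genes had 6 of 79, led by Rpl18 at 169337, and mitochondrial ribosomal protein genes 5 of 75, led by Mrps12 at 149256 and Mrpl36 at 147074. Proteasome genes had 3 of 50, solute carrier genes 18 of 362 (led by Slc16a8 at 172386) and Zfp genes 6 of 388. Forkhead genes had 3 of 41, Foxh1, Foxj1 at 47687 and Foxo3 at 41252. Sox genes had 2 of 18, Sox8 at 84147 and Sox12 at 42034. Of 1103 olfactory receptor genes 3 had one, and of 351 vomeronasal receptor and 39 Hox genes 0. Members of a family can share a peak or a cluster, and no share was tested.

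**Figure D4:**
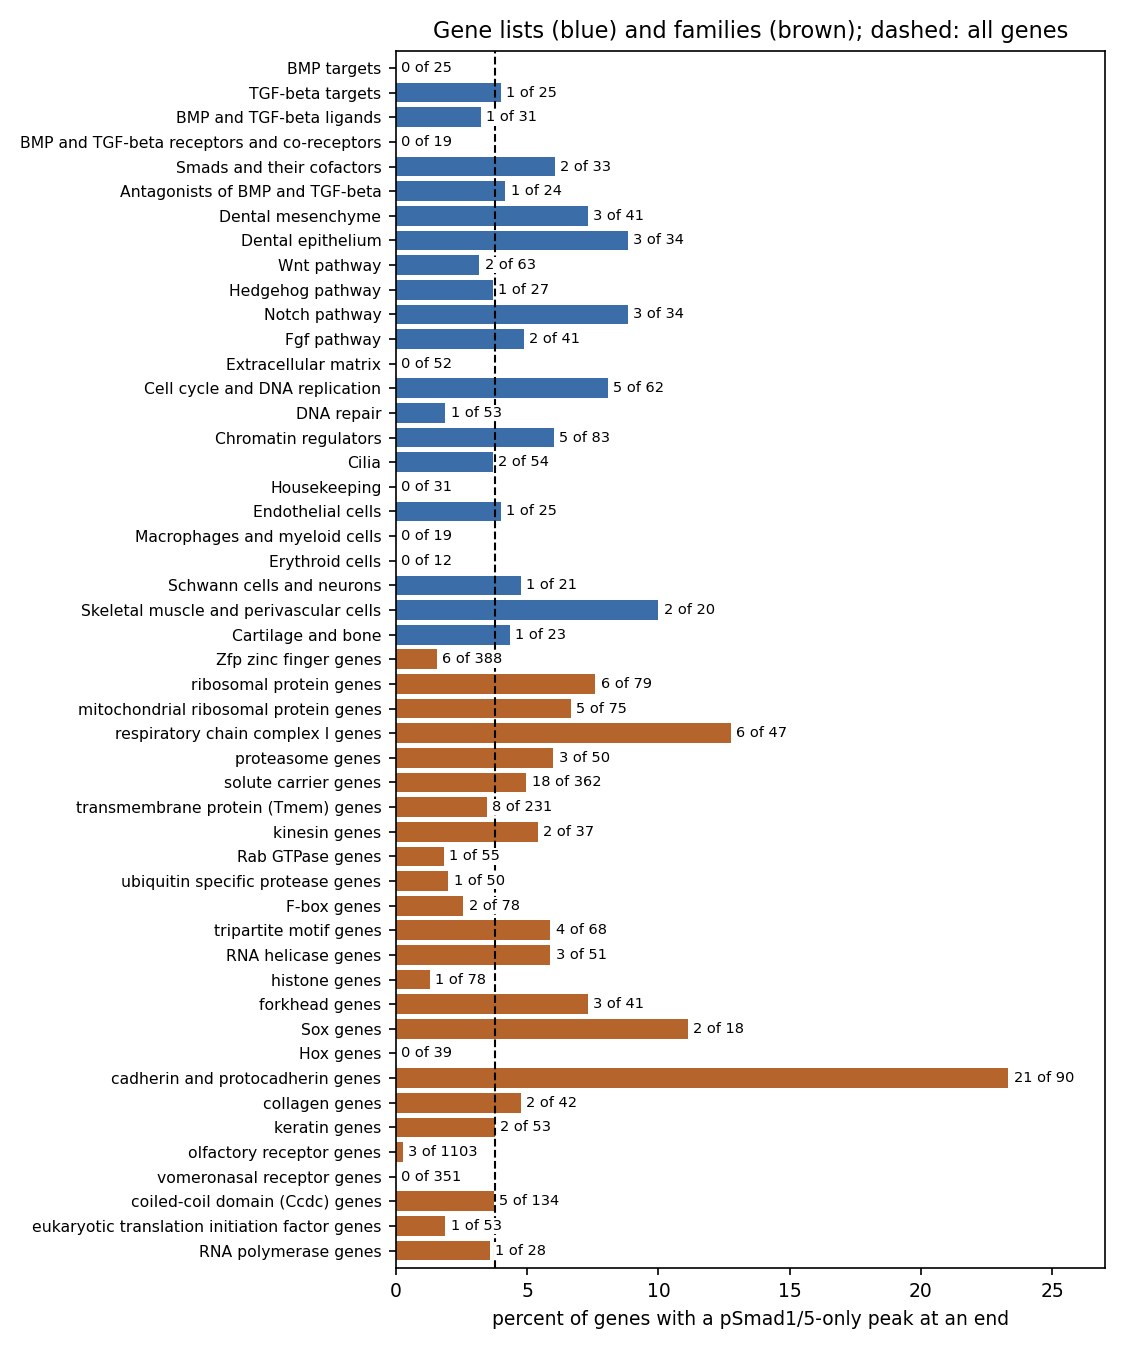
Percent of protein-coding genes with a gene-end peak (x axis) in 24 gene lists (blue) and 25 families (brown), with the count beside each bar and the 3.78% of all protein-coding genes as a dashed line. Complex I genes reach 12.8%, the 21 of 90 cadherin and protocadherin genes stand at 1 shared peak, and 6 lists and 2 families have none.

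The peaks were spread unevenly over the chromosomes. All 19 chromosomes together had 13.8 gene-end peaks per 1000 gene ends, with 21.5 on chromosome 17 (66 peaks), 21.4 on chromosome 4 (89) and 21.0 on chromosome 15 (55). The lowest values were 8.05 on chromosome 18 (15 peaks), 8.09 on chromosome 6 (30) and 8.34 on chromosome 3 (28). As a share of all pSmad1/5 peaks of the chromosome, gene-end peaks made up 8.61% over the 19 chromosomes, 11.3% on chromosome 17, 9.36% on chromosome 4 and 11.8% on chromosome 15. That share was 5.93% on chromosome 18, 5.94% on chromosome 6 and 8.72% on chromosome 3, and lowest on chromosome 12 with 4.85%. Chromosomes 3 and 4 are thus near the share of all chromosomes when set against the whole list.

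**Figure D5:**
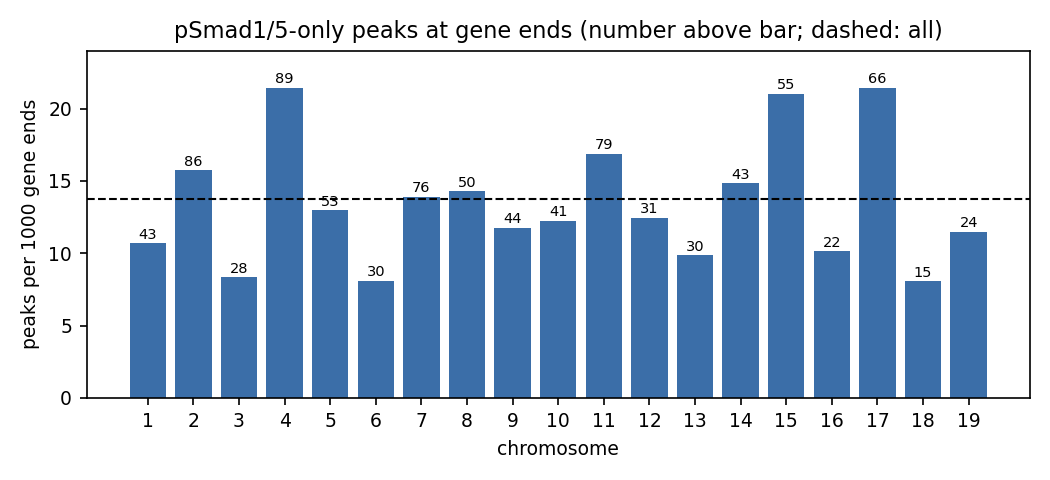
Gene-end peaks per 1000 ends of protein-coding and lncRNA genes (y axis) for chromosomes 1 to 19 (x axis), with the number of peaks above each bar and the value over all chromosomes, 13.8, as a dashed line. Chromosomes 17, 4 and 15 stand above 20 and chromosomes 18, 6 and 3 below 9.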

How the data were processed

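Libraries were 2 per antibody, sequenced as paired-end reads of 100 bp after a digestion of 30 min, per the labels' protocols. Alignment and peak calling used SEACR, Bowtie2, deepTools, SAMtools, bedtools and build mm10, per the submitters' processing notes, without versions. For SEACR settings, any control library and the way 2 libraries became 1 list, the sources used here give nothing. The deposited values are signal, the coverage total and maximum of each call in the authors' own scaling, per the labels. Read depth is unknown, and no count or test across libraries can be made from 1 list per antibody.

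Peaks were placed against the RefSeq gene table of GRCm38.p6 (mm10). Genes with a listed start below 3 Mb were taken to have scaffold positions and left out. Strand was taken from the RefSeq promoter table, which covers 16456 of 20556 protein-coding genes and 78.4% of the 776 with a gene-end peak. Promoters of chromosome 18 were not analysed here. No genome was used, so peaks were not annotated to exons. Counts, medians and exact intervals were computed with Python 3.11.15, pandas 2.3.3, NumPy 2.4.6 and SciPy 1.17.1, and figures with Matplotlib 3.10.9. The steps that find gene ends within the window and overlaps of 1 bp were tested on simulated data, and the motif search was not. The percentile ranks totals within all 10741 pSmad1/5 peaks. The members, gene lists, families, motifs and rules were chosen with earlier results of these data known.

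Named genes were those at the 10 calls of highest total, every listed gene with a gene-end peak, genes with most calls, peaks at most genes, those at each limit, calls with most pieces, the widest peaks, up to 5 genes a family, and up to 8 promoter sequences, of which 2 are printed. Some of them are given only in counts. Other names are said to be chosen after their values were seen. Alternatives covered the window, the limit on the maximum, the overlap, gene classes, chromosomes, the position of a peak, the threshold and the promoter set.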

Additional observations from a re-analysis of the deposited data

How the results depend on the processing

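The number of peaks followed the distance chosen. With a window of 500 bp there were 497 peaks at 570 genes, 20 of them listed genes, and 10.9% stood near 2 or more gene ends. With 2 kb there were 1625 peaks at 1920 genes, 66 of them listed, and 22.1% near 2 or more ends. With protein-coding genes alone, 13.8% stood near 2 or more ends. Keeping only peaks with a total at or above the list median left 418 peaks at 498 genes, 17 of them listed, and raised the share in calls of several pieces to 51.9%. Placing peaks by the midpoint of the region of maximum gave 940 peaks at 899 genes, 26 of them listed. The counts are close but most peaks changed, since only 342 of the 905 (37.8%) had that midpoint within 1 kb of a gene end. The other alternatives were the limits on the maximum and on the overlap, chromosomes X and Y, and promoter windows wholly inside a peak. Over all alternatives 45 values stayed within 1.5 times the main count or within its counting interval, and 13 moved. The promoter alternative was run on all windows of coding and lncRNA genes, not on the protein-coding set of the report. No paired analysis was possible because each antibody has 1 deposited list for both libraries, with no value per library, and for the same reason no library could be left out. Depth is unknown, so a missing peak is a missing call.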

Other observations

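Some gene-end peaks lay over small RNA genes. Of the 905, 8 overlapped a miRNA hairpin (0.884%, interval 0.382 to 1.73), beside 23 of the 4465 peaks inside genes (0.515%) and 2 of the 2679 between genes (0.0747%). These genes were named after the overlap was seen. The peak at ends of Egfl7 and Agpat2, chr2:26591242-26593015, covers Mir126a, whose product is a miRNA of endothelium that is made from the Egfl7 gene. A peak at chr9:108566384-108569643, at the starts of Dalrd3 and Ndufaf3 with a total of 42615, covers Mir191 and Mir425, which lie within Dalrd3. The mature sequences from RefSeq are given 5′ to 3′ with the seed, bases 2 to 8, in capitals, and the 3 seeds differ.
mmu-miR-126a-3p: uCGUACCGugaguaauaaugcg
mmu-miR-191-5p: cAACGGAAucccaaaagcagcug
mmu-miR-425-5p: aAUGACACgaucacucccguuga

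Among tooth and growth genes outside the lists, chosen after their values were seen, several had a gene-end peak. How many such genes had none was not counted, so they give no share. The lists above had 3 of 41 mesenchymal and 3 of 34 epithelial genes with one, beside 3.78% of all protein-coding genes. Odaph, a gene of enamel formation, had a total of 37496 at its start, with the nearest pSmad3 peak 512968 bp away. Tuft1, which encodes tuftelin, had 39685, and Lrp4, a receptor that binds BMP antagonists in the tooth, 44325. Six2, a homeobox factor, had 54565 at its start, and Jun and its antisense neighbour Junos shared a peak of 55989 that spans both starts. Wnt9a had 54773 and Wnt2b 49709, both at the downstream end. The lncRNA gene Gas5, a host of small nucleolar RNAs, had 79995 at its start, and Snhg12, another such host, 45098 at its downstream end.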
